A study of Homo sapiens with 4 samples.

Results

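Genes that mark or drive the epithelial-mesenchymal transition (EMT) were followed in human cells on day 2 of blood differentiation. They were picked by name for their known roles, with earlier results of these data known: SNAI1, SNAI2, ZEB1, ZEB2, TWIST1, VIM and FN1 on the mesenchymal side, and EPCAM, ESRP1 and GRHL2 on the epithelial side. These are 10 of the 17894 genes listed, and all 10 had a mean of at least 1 FPKM over the 4 libraries, as did 12697 genes in all.

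H1, a human embryonic stem cell line, was differentiated on mAGM-S3 stromal cells, and cells positive for TRA-1-85, an antigen of human cells, were sorted on day 2. Total RNA of 4 samples was sequenced, with 1 library each. The control was wild-type H1. The second sample was wild-type H1 given R-spondin2, a secreted protein that strengthens WNT signalling, at 20 ng/mL for the first day, that is for 1 day. The other 2 samples were H1 cells of genotype LGR4-/-, numbered 1 and 2 in the labels and called clone 1 and clone 2 here. The labels do not say which bases of LGR4 were altered, or whether the numbers stand for separate clonal lines. A treatment protocol that names R-spondin2 is attached to all 4 samples, the control included, and the treated sample was told apart by its own title and description. LGR4 encodes a receptor for R-spondins.

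In EMT, cells of an epithelial sheet loosen their junctions, lose their apical and basal polarity and become motile. The embryo uses it at the primitive streak, where cells of the pluripotent epiblast leave the sheet to form mesoderm, the layer from which blood arises. Transcription factors of the SNAI, ZEB and TWIST families bind E-boxes, short DNA motifs, and repress epithelial genes such as CDH1, which encodes E-cadherin. GRHL2 and the splicing regulator ESRP1 act on the other side and maintain the epithelial state.

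LGR4 itself stood at 21.77 FPKM in the control library, 24.26 with R-spondin2, 7.40 in clone 1 and 13.95 in clone 2. FPKM are fragments mapped to a gene, scaled to transcript length and to the mapped fragments of the library. Both LGR4-/- libraries were thus below both wild-type libraries, with RNA of the gene still present, and the level in clone 2 was 1.89 times that in clone 1. RNA that lies outside an altered part of a gene would not check the genotype.

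The depth was estimated from the low FPKM at 8680000 to 8910000 reads per library, a ratio of 1.026 between the deepest and the shallowest. Pluripotency markers were plentiful in all 4 libraries, with summed levels of the 6 genes listed (POU5F1, NANOG, SOX2, LIN28A, DPPA4 and PRDM14) of 1144 FPKM in the control, 877 with R-spondin2, 1914 in clone 1 and 1751 in clone 2. Sums for 7 genes of primitive streak and early mesoderm (T, MIXL1, EOMES, MESP1, GSC, APLNR and HAND1) ran the other way, at 1082, 1430, 375 and 586 FPKM in the same order. Each of the 6 was lower and each of the 7 higher with R-spondin2, and each stood on the opposite side of the control in both clones. Both lists moved with the EMT genes below, and their part in those differences was not tested. In bulk RNA, fewer cells of a type and less RNA per cell cannot be told apart. All 4 neuroectoderm markers (PAX6, SOX1, ZIC1 and POU4F1) were below 1 FPKM in every library, and no marker of endothelium or blood (PECAM1, CDH5, CD34, PTPRC and SPN) exceeded 2.71 FPKM. Of 5 endoderm markers, FOXA1, AFP and TTR were below 1 FPKM in every library, and the 5 summed to 36.8 to 59.3 FPKM, of which SOX17 made up most. SOX17 was lower in both clones (47.11, 49.89, 23.62 and 27.19 FPKM in control, R-spondin2, clone 1 and clone 2) and FOXA2 higher in both (9.05, 8.44, 11.88 and 11.64 FPKM).

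Upstream sequence was found for 4 of the 10 genes (ZEB1, ZEB2, VIM and FN1) in a RefSeq promoter table of build GRCh38.p14, another build than the hg19 named in the submitters' processing notes. The 250 bases before the transcription start are shown for ZEB1 (the first of its 7 listed starts) and ZEB2, which encode related repressors. Those of VIM are also shown. VIM had the widest range of log2(FPKM+1) over the libraries among the 10 genes. Capitals mark every E-box, written CANNTG and read the same on both strands.
ZEB1, chr10:31318167-31318416, plus strand: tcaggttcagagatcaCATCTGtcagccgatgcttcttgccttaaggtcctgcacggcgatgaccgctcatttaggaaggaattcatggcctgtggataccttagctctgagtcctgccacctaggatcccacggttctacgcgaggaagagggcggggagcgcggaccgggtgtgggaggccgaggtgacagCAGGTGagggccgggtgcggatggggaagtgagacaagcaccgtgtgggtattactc
ZEB2, chr2:144520120-144520369, minus strand: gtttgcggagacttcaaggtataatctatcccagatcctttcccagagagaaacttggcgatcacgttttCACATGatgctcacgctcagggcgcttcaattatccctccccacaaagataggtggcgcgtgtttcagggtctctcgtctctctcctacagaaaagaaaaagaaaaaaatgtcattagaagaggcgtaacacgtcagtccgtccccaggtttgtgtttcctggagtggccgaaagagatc
VIM, chr10:17227991-17228240, plus strand: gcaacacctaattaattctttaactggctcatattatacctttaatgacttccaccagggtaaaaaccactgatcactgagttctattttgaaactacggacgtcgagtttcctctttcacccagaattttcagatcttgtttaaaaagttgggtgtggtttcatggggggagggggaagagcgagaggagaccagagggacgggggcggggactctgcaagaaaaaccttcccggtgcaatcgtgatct
The ZEB1 window shown held 2 E-boxes, beginning at positions -234 and -57, where -1 is the last base before the start. The nearer, CAGGTG, has the form bound by SNAI and ZEB factors. Among the other ZEB1 windows only that of start 3 held CACCTG or CAGGTG. Those of starts 2, 4 and 6 held no E-box. ZEB2 had 1 E-box, of another form, and the VIM and FN1 windows had none. Of all 35116 upstream windows of 250 bases in the table, 61.8% held a CANNTG and 17.5% a CACCTG or CAGGTG. The sequence CTTTGA or its reverse complement TCAAAG, the core bound by the TCF and LEF factors of WNT signalling, was in none of these windows (all 7 of ZEB1 included) and in 11.2% of all windows. A match is a description of the letters only.

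On the mesenchymal side, all 7 genes were highest with R-spondin2, next in the control, lower in clone 2 and lowest in clone 1. All 3 epithelial genes had the reverse order. This order held for each gene over the 4 libraries as shown in the plot of FPKM by library, but neighbours in it were often close, and intervals are given below.

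**Figure D1:**
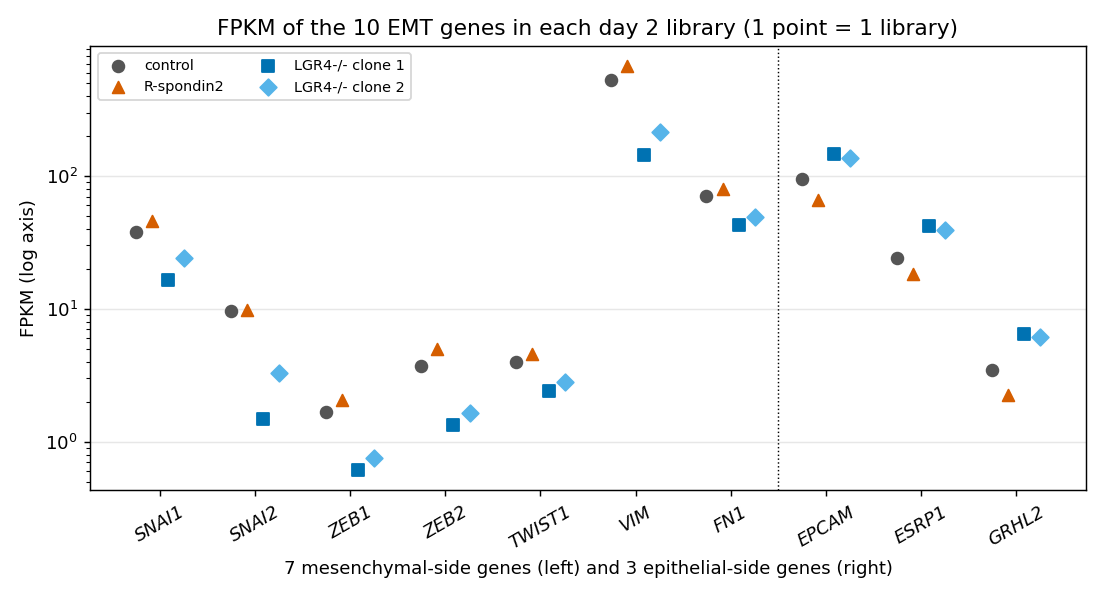
FPKM of the 10 genes on a log axis, with 1 point per library and the 7 mesenchymal-side genes left of the dotted line. Control and R-spondin2 points lie above both LGR4-/- points for the 7 genes on the left, and below them for EPCAM, ESRP1 and GRHL2 on the right.

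SNAI1, which encodes the Snail repressor of CDH1, was at 37.77 FPKM in the control, 45.67 with R-spondin2, 16.40 in clone 1 and 24.11 in clone 2. SNAI2, which encodes Slug and is expressed in migrating mesoderm and neural crest, was at 9.57, 9.78, 1.48 and 3.27 FPKM in the same order. The wild-type libraries were nearly equal for SNAI2, whereas the control was 6.47 times clone 1 and 2.93 times clone 2. SNAI1 exceeded SNAI2 everywhere, by 3.95 and 4.67 times in control and R-spondin2 and by 11.1 and 7.37 times in clones 1 and 2.

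ZEB1 was the lowest of the 10 genes in every library, at 1.67 FPKM in the control, 2.05 with R-spondin2, 0.61 in clone 1 and 0.76 in clone 2. Its relative ZEB2 was at 3.74, 4.95, 1.34 and 1.65 FPKM. Both genes had control levels more than 2-fold above each clone in FPKM, and the ratio of ZEB2 to ZEB1 stayed between 2.17 and 2.41. Few reads lay behind ZEB1, as given below, and no interval was computed for this ratio, so its constancy was not tested. TWIST1, which encodes a basic helix-loop-helix factor of mesoderm, was at 3.97, 4.56, 2.42 and 2.80 FPKM, and its clone values were 0.61 and 0.705 of the control.

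VIM encodes vimentin, the intermediate filament protein of mesenchymal cells, and was at 523.90 FPKM in the control, 670.48 with R-spondin2, 143.66 in clone 1 and 215.53 in clone 2. The control was 3.65 times clone 1 and 2.43 times clone 2, and the R-spondin2 library was 1.28 times the control. FN1 encodes fibronectin, a matrix protein on which mesoderm cells migrate, and was at 70.58, 79.68, 42.81 and 49.09 FPKM. Its clones stood at 0.607 and 0.696 of the control.

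EPCAM, a cell-surface adhesion protein of epithelial and pluripotent cells, was at 94.57 FPKM in the control, 66.45 with R-spondin2, 146.72 in clone 1 and 135.35 in clone 2. ESRP1 was at 24.22, 18.21, 42.06 and 39.01 FPKM. GRHL2, a Grainyhead-like transcription factor, was at 3.49, 2.24, 6.46 and 6.11 FPKM. For these 3 genes clone 2 stood at 0.923 to 0.946 of clone 1, and both clones were above both wild-type libraries.

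The R-spondin2 library was compared with the control to ask how wild-type cells given added ligand differ from those without the addition. Any R-spondin from the stromal cells would be shared by both libraries. On the log2(FPKM+1) scale, which understates differences of low genes, the 7 mesenchymal-side genes were 0.03 to 0.36 higher and the 3 epithelial-side genes 0.39 to 0.50 lower. On this scale none of the 10 reached 2-fold, a size passed by 0.221% of all genes in either direction. None reached 1.5-fold on it either, which 0.536% of genes did upward and 1.46% downward, but in FPKM the control was 1.56 times the R-spondin2 library for GRHL2. By direction alone, 47.8% of all genes were higher and 51.9% lower with R-spondin2, and the median over all genes was -0.01. With 1 library per condition there is no replicate check and no test.

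Upward differences were 0.36 for VIM, above 96.7% of genes, 0.33 for ZEB2 and 0.27 for SNAI1. With a pseudocount of 0.1 ZEB2, at 0.40, was above VIM, at 0.36. ZEB1 (0.19), FN1 (0.17), TWIST1 (0.16) and SNAI2 (0.03) were smaller. Downward differences were -0.50 for EPCAM, with 2.2% of genes lower, -0.47 for GRHL2 and -0.39 for ESRP1, and with a pseudocount of 0.1 GRHL2, at -0.62, was below EPCAM, at -0.51.

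The counting error behind these ratios was estimated from the reads each FPKM implies, with 95% Clopper-Pearson intervals on the log2 ratio of reads. They cover counting error only, not the spread between cultures. Reads were computed on the shortest matched transcript of each gene, which among its matched transcripts gives the fewest reads and the widest intervals. These reads are approximate, because the depth was itself estimated and full transcript lengths were used. For VIM, 9966 reads in the control and 12425 with R-spondin2 gave a log2 ratio of 0.36 (interval 0.32 to 0.39). The interval also lay above 0 for SNAI1 (0.11 to 0.44), ZEB2 (0.07 to 0.74) and FN1 (0.07 to 0.28). At this depth no difference could be detected for SNAI2 (-0.28 to 0.35, with 171 reads in each library), ZEB1 (-0.29 to 0.87, with 48 and 57 reads) and TWIST1 (-0.33 to 0.73, with 59 and 66 reads). All 3 epithelial-side genes had intervals below 0, at -0.63 to -0.39 for EPCAM, -0.58 to -0.25 for ESRP1 and -1.01 to -0.27 for GRHL2.

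**Figure D2:**
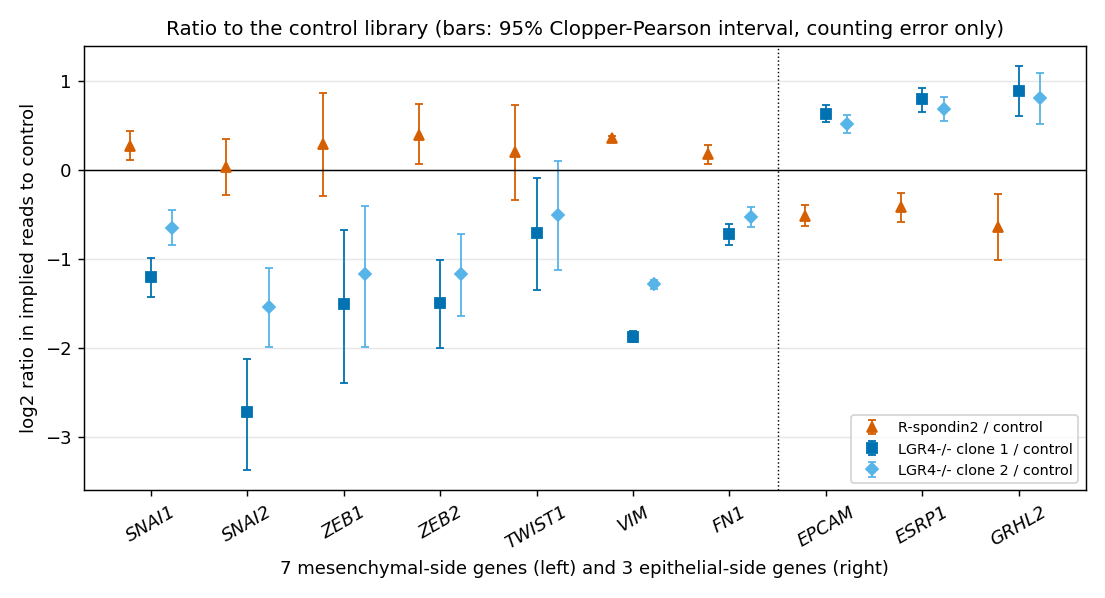
Log2 ratio of implied reads to the control library for each gene (triangles, R-spondin2; squares, LGR4-/- clone 1; diamonds, clone 2), with bars for 95% counting intervals. R-spondin2 ratios of SNAI2, ZEB1 and TWIST1 have intervals that cross 0, as has TWIST1 in clone 2, and the widest departure from 0 is SNAI2 in clone 1 at -2.72.

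The LGR4-/- libraries were compared with the same control library to ask how cells of this genotype differ from wild-type cells. The 2 comparisons therefore share their control, and a control library that was itself high or low would move both. All 7 mesenchymal-side genes were lower and all 3 epithelial-side genes higher in both clones, where 35.5% of all genes were lower in both and 42.5% higher in both. At least a 2-fold difference in both clones on the log2(FPKM+1) scale was reached by SNAI2 and VIM, both lower, and by none upward. In FPKM, ZEB1 and ZEB2 were also less than 0.5 of the control in both clones, and with a pseudocount of 0.1 the rule called 4 of the 10. Over all genes, 1.08% were lower by this rule and 0.236% higher. Clone 1 alone placed 4 of the 10 past 2-fold (SNAI1, SNAI2, ZEB2 and VIM) and 447 genes in all, against 2 and 191 for clone 2 alone and 2 and 167 for both together.

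SNAI2 differed from the control by -2.09 in clone 1 and -1.31 in clone 2, and only 0.331% of all genes had a lower clone mean. VIM differed by -1.86 and -1.28, with 0.449% of genes lower. SNAI1 followed at -1.16 and -0.63, ZEB2 at -1.02 and -0.84, ZEB1 at -0.73 and -0.60, FN1 at -0.71 and -0.52, and TWIST1 at -0.54 and -0.39. The differences of the epithelial-side genes were close to each other in size, at 0.77 and 0.67 for ESRP1, 0.73 and 0.66 for GRHL2, and 0.63 and 0.51 for EPCAM. At 1.5-fold in both clones, SNAI1, SNAI2, ZEB1, ZEB2 and VIM were lower and ESRP1 and GRHL2 higher, beside 3.09% of all genes lower and 2.61% higher.

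The counting interval against the control excluded 0 for all 10 genes in clone 1 and for all but TWIST1 in clone 2 (-1.12 to 0.10, with 59 reads in the control and 41 in the clone). On its shortest matched transcript, ZEB1 rested on only 17 and 21 implied reads in the clones. Its intervals were wide, at -2.39 to -0.67 in clone 1 and -1.99 to -0.40 in clone 2.

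A test across all genes was run with limma on log2(FPKM+1). It has 1 residual degree of freedom, from the difference between the clones, and assumes that the lone control varies as they do. With the Benjamini-Hochberg adjusted p required to be under 0.05, limma called 0 of the 10 genes and 0% of all 12697 genes. Adjusted p from limma ran from 0.0785 for ESRP1 to 0.244 for TWIST1, with 0.0821 for EPCAM, 0.0847 for VIM and 0.0974 for SNAI2. At an unadjusted p under 0.05 limma listed all 10, beside 2342 genes in all, or 18.4%. The calls turned on the processing. After median-ratio rescaling of the libraries limma called 92 genes and none of the 10, of which VIM and ESRP1 had the lowest adjusted p, 0.052. With a mean of at least 5 FPKM required, limma called 540 genes, among them SNAI2 (adjusted p = 0.031), VIM (0.0125), FN1 (0.027), EPCAM (0.0181) and ESRP1 (0.0165), while SNAI1 had 0.0505 and ZEB1, ZEB2, TWIST1 and GRHL2 were not tested. An exact permutation test of 1 library against 2 cannot go below p = 0.333.

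Set against each other, the clones differed in the same direction for each of the 7 mesenchymal-side genes, all higher in clone 2, and the 3 epithelial-side genes were all lower in clone 2. Of all genes, 49.2% were higher and 50.4% lower in clone 2. On the log2(FPKM+1) scale SNAI2 was the only one of the 10 past 1.5-fold, a threshold that 1.35% of all genes passed upward. Its log2 difference was 0.78, above 99.5% of genes. VIM (0.58) and SNAI1 (0.53) came next. In FPKM, clone 2 was at 2.21 times clone 1 for SNAI2 and at 1.5 times for VIM. Counting intervals of the ratio of clone 2 to clone 1 lay above 0 for SNAI1, SNAI2, VIM and FN1, below 0 for EPCAM (-0.20 to -0.03), and included 0 for the other five. LGR4 RNA was also higher in clone 2, and its part in these differences was not tested.

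The levels of both sides were summarised per library as the mean log2(FPKM+1) of the 3 epithelial-side genes minus that of the 7 mesenchymal-side genes. This balance was 0.20 in the control, -0.47 with R-spondin2, 2.07 in clone 1 and 1.61 in clone 2, so that R-spondin2 lay 0.67 below the control and the clones 1.87 and 1.41 above it. Both means contributed, since the mesenchymal mean ran from 3.11 in clone 1 to 4.48 with R-spondin2 and the epithelial mean from 4.01 with R-spondin2 to 5.18 in clone 1. In FPKM, VIM exceeded EPCAM 5.54 times in the control, 10.1 times with R-spondin2 and 1.59 times in clone 2, and was at 0.979 of EPCAM in clone 1.

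**Figure D3:**
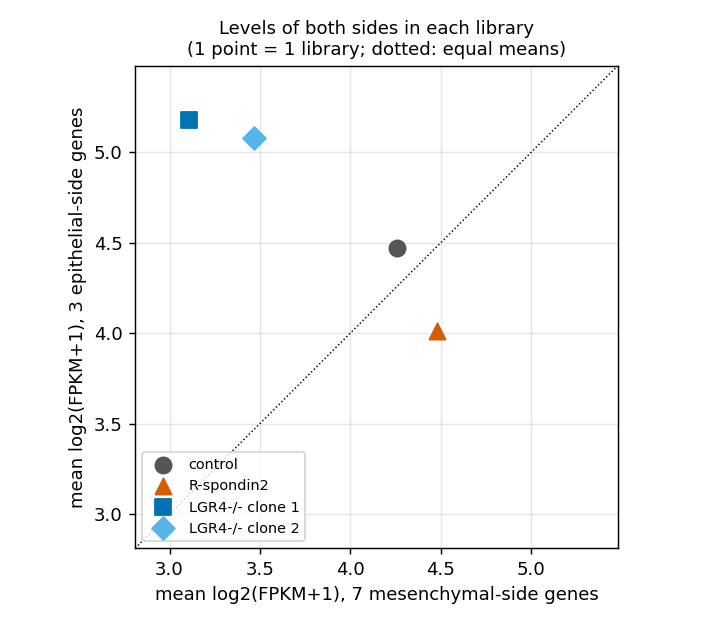
Mean log2(FPKM+1) of the 7 mesenchymal-side genes (horizontal axis) against that of the 3 epithelial-side genes (vertical axis), with 1 point per library and a dotted line of equal means. R-spondin2 lies below the line and to the right of the control, and both LGR4-/- clones lie above the line and to its left.

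The cadherins, which are exchanged in EMT, were in the same order. CDH1 was at 40.42 FPKM in the control, 29.23 with R-spondin2, 83.83 in clone 1 and 72.74 in clone 2. CDH2, which encodes N-cadherin, was at 89.40, 106.00, 44.76 and 59.08 FPKM. CDH2 therefore exceeded CDH1 by 2.21 times in the control and 3.63 times with R-spondin2, and was below it in both clones, at 0.534 and 0.812 of CDH1.

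A wider list of 26 mesenchymal-side genes, CDH2 included, had 25 genes at a mean of at least 1 FPKM (PRRX1 was lower). Of these, 21 (84%, against 47.8% of all genes) were higher with R-spondin2, with a list median of 0.18, and 0 were past 2-fold on the log2(FPKM+1) scale. In both clones 18 (72%, against 35.5% of all genes) were lower and 5 (20%, against 42.5%) higher, with a median of -0.48 for the clone mean against 0.02 over all genes. CDH11, FOXC1, ITGA5 and WNT5A, 16% of the list against 1.08% of all genes, were past 2-fold lower in both, and 7 genes were when clone 1 was read on its own. WNT5A, a non-canonical WNT ligand of the primitive streak, had the largest difference, with 31.53 FPKM in the control, 42.52 with R-spondin2, 6.12 in clone 1 and 11.33 in clone 2. FOXC1, a mesoderm transcription factor, was at 11.79, 13.05, 2.54 and 4.03 FPKM. CDH11, a mesenchymal cadherin, was at 13.75, 17.89, 3.66 and 6.0 FPKM. ITGA5, the alpha subunit of the fibronectin receptor, was at 92.20, 108.00, 29.73 and 44.82 FPKM, a wider relative range than its ligand FN1.

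Not every gene of that list took part. SNAI3, the third SNAI family member, was lower with R-spondin2 and higher in both clones, at 1.11 FPKM in the control, 0.61 with R-spondin2, 2.09 in clone 1 and 2.32 in clone 2. VCAN, a matrix proteoglycan, was at 66.40, 53.15, 89.06 and 88.89 FPKM, and TGFBI, a secreted matrix protein, at 2.02, 1.55, 2.73 and 2.78 FPKM. These 3 genes had the order of the epithelial side with respect to the control, as had AXL (7.35, 6.51, 9.70 and 8.78 FPKM). ACTA2, smooth muscle actin, had the largest upward difference with R-spondin2 in the list (7.54 to 11.33 FPKM, 0.53) and stood at 6.89 and 6.78 FPKM in the clones.

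The wider epithelial-side list of 37 genes had 35 at a mean of at least 1 FPKM. With R-spondin2, 30 of them (85.7%, against 51.9% of all genes) were lower and the list median was -0.26. In both clones 27 (77.1%, against 42.5%) were higher and 5 (14.3%, against 35.5%) lower, with a median of 0.43. On the log2(FPKM+1) scale none was past 2-fold in both clones, 5 were when clone 1 was read on its own (0 for clone 2), and 9 (25.7%, against 2.61% of all genes) were past 1.5-fold higher in both. With a pseudocount of 0.1, 2 genes were past 2-fold in both clones and 2 with R-spondin2. CLDN4, a tight-junction claudin, was the one gene past 2-fold with R-spondin2 on the log2(FPKM+1) scale, at 7.31 FPKM in the control and 2.50 with R-spondin2, but its clones, at 8.78 and 9.34, were little above the control. TJP3, a scaffold protein of tight junctions, was at 1.99, 0.66, 8.56 and 4.18 FPKM, ratios to the control of 0.332 with R-spondin2 and of 4.3 and 2.1 in the clones. CLDN3 was at 2.11, 1.20, 7.13 and 4.96 FPKM, with clones at 3.38 and 2.35 times the control. CLDN7 was at 25.81, 17.63, 54.16 and 47.88 FPKM, and CD24, a surface glycoprotein of epithelial and pluripotent cells, at 277.36, 181.02, 617.88 and 492.77 FPKM.

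**Figure D4:**
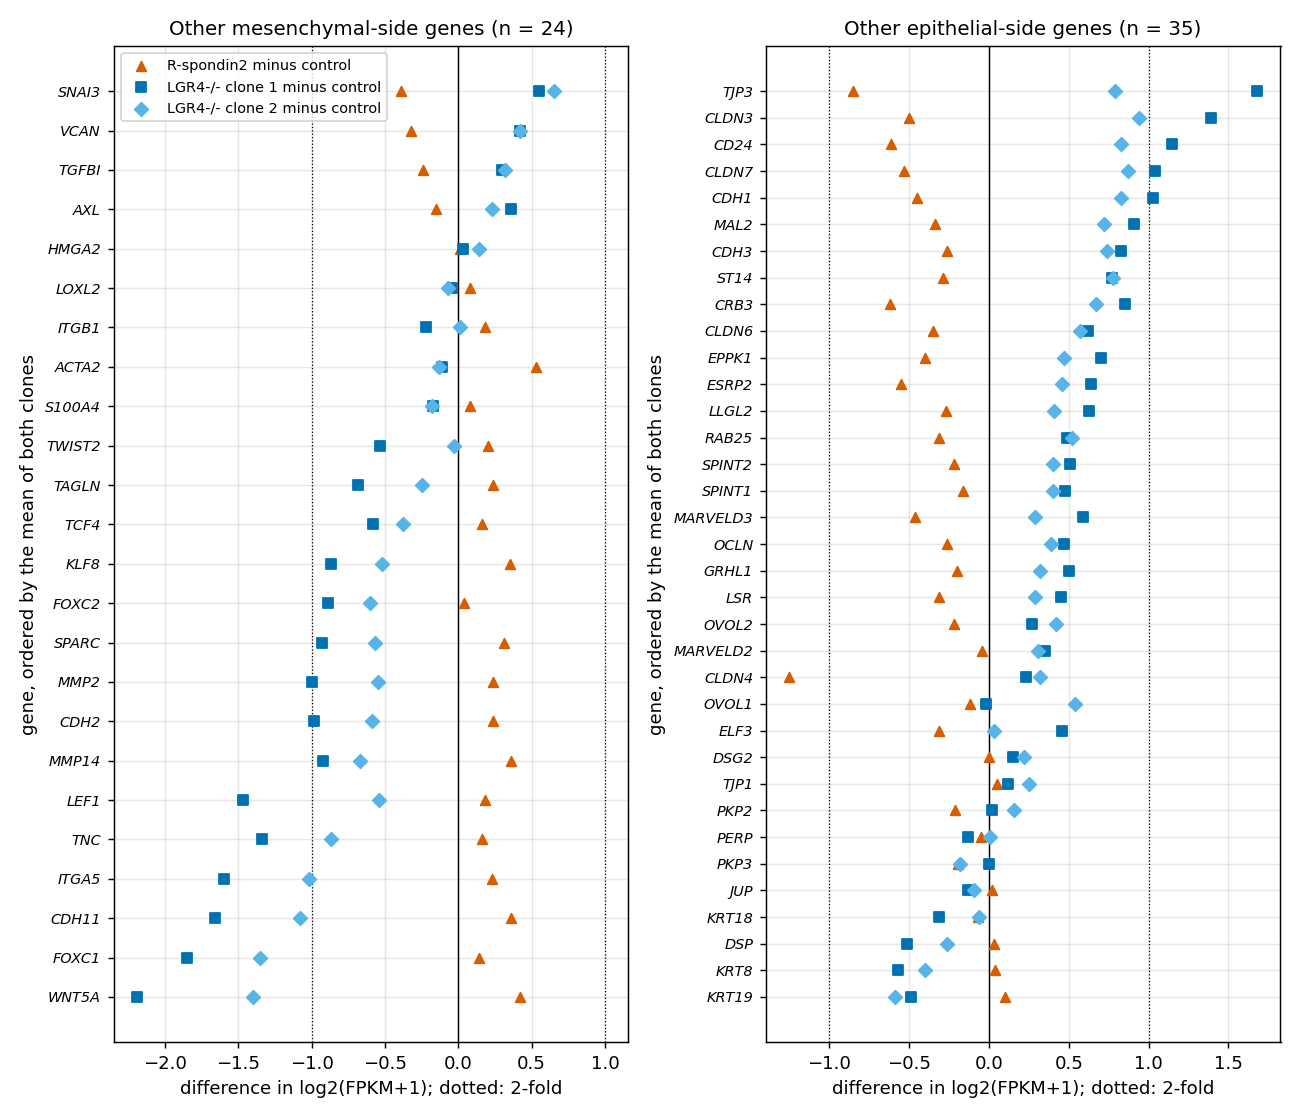
Difference from control in log2(FPKM+1) for 24 of the 25 other mesenchymal-side genes (left) and the 35 other epithelial-side genes (right), with triangles for R-spondin2, squares for clone 1 and diamonds for clone 2, and dotted lines at 2-fold. Most triangles lie opposite to the squares and diamonds about 0. In the clones, SNAI3 and VCAN (top of the left panel) lie on the other side from their list. So do KRT8, KRT18, KRT19 and DSP (foot of the right panel). The triangle of KRT18, at -0.07, lies on the side of its list.

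The 5 epithelial-side genes lower in both clones were the keratins KRT8, KRT18 and KRT19 and the desmosomal genes DSP and JUP. Other desmosomal genes did not share this: DSG2 (50.30, 50.20, 55.96 and 58.77 FPKM) and PKP2 (7.80, 6.61, 7.95 and 8.86 FPKM) were higher in both clones than in the control, and PKP3 (11.56, 10.03, 11.56 and 10.08 FPKM) in neither. KRT8 was at 517.46 FPKM in the control, 531.62 with R-spondin2, 348.91 in clone 1 and 390.84 in clone 2, and KRT19 at 184.09, 197.06, 131.19 and 121.78 FPKM. KRT18, the partner of KRT8 in simple epithelia, was at 347.41, 331.88, 279.09 and 332.09 FPKM. DSP, which encodes desmoplakin, was at 38.64, 39.54, 26.77 and 32.00 FPKM. None of the 5 was past 1.5-fold in both clones on the log2(FPKM+1) scale. TJP1, a tight-junction scaffold, was near level, at 18.66, 19.30, 20.40 and 22.34 FPKM.

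VIM, SNAI2 and the stromal matrix genes are also active in fibroblasts, so markers of stroma were read beside them. COL6A3, DCN and POSTN were below 1 FPKM in every library, and the 10 stromal markers (with COL1A1, COL1A2, COL3A1, LUM, THY1, PDGFRB and LOX) summed to 240 FPKM in the control, 299 with R-spondin2, 218 in clone 1 and 249 in clone 2. LUM, at 5.49, 9.11, 0.16 and 1.45 FPKM, moved with VIM, whereas THY1, at 43.99, 36.07, 54.28 and 64.51 FPKM, did not. Of the 7 with a mean of at least 1 FPKM, 6 were higher with R-spondin2, and 4 were lower and 2 higher in both clones. These values do not measure carry-over of the mAGM-S3 cells, which was not tested.

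The genes with differences most like those of VIM, the one of the 10 with the widest range of log2(FPKM+1), were found by the Euclidean distance over the 3 differences from control, with 4 libraries behind them. They were PLEKHA6 at a distance of 0.05 (10.03, 13.27, 2.14 and 3.49 FPKM in control, R-spondin2, clone 1 and clone 2), PLPP4 at 0.08 (4.70, 6.50, 0.50 and 1.33 FPKM) and NRP2 at 0.08 (28.72, 38.17, 7.57 and 11.46 FPKM). Among the 10 genes the nearest to VIM was SNAI2, at 0.40, which placed it at rank 59 of all genes, and ZEB2 followed at 0.95. A further list, the genes that the deposited annotation places under the GO process of epithelial to mesenchymal transition, was added after the values had been seen. It held 30 genes, of which 23 had a mean of at least 1 FPKM and 1, SNAI1, is among the 10. With R-spondin2 17 of the 23 (73.9%, against 47.8% of all genes) were higher. In both clones 16 (69.6%, against 35.5%) were lower and 5 (21.7%, against 42.5%) higher, with a median of -0.17 for the clone mean. BMP2 and BAMBI, a ligand and a pseudoreceptor of the TGF-beta family, were past 2-fold lower in both (8.7%, against 1.08% of all genes).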

How the data were processed

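The 4 libraries were grouped by their labels. The authors deposited FPKM, to 2 decimals, for 17894 genes per library. The submitters' processing notes name BWA, Bowtie, RSEM and build hg19, and their roles, versions and settings are not given in the sources used here. FPKM were compared as log2(FPKM+1) after removal of genes whose mean was under 1 FPKM, which left 12697, and a gene was called at 2-fold, for the LGR4-/- clones in both. limma 3.58.1 (R 4.3.3, eBayes with trend) tested the clones against the control. For depth, low values (under 0.6 FPKM, transcripts under 1500 bases, GENCODE release 29 lengths) were turned into reads, and the total that brought them nearest to whole numbers was taken. Between 76.3% and 77.7% lay within 0.2 of a whole read, against 38.6% to 42.1% with lengths shuffled. Implied reads used the shortest matched transcript. Python 3.11.15, numpy 2.4.6, pandas 2.3.3, scipy 1.17.1 and matplotlib 3.10.9 were used.

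The 10 genes, the lists and the tests were chosen with earlier results of these data known. Named were the 10 genes, CDH1, CDH2, LGR4, in each wider list the 4 largest differences each way in the clone mean and the 2 largest each way with R-spondin2, and the 3 genes nearest to the member with the widest range. Some items these rules name are not reported here. BMP2, BAMBI, AXL, JUP, DSG2, PKP2, PKP3 and the genes named for failing the filter were named after their values were seen. Marker lists were those of the cell types the sorted cells could hold. The alternatives were a pseudocount of 0.1, no filter, a mean of at least 5 FPKM, median-ratio rescaling, 1.5-fold, each clone left out, eBayes without trend and the GO list.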

Additional observations from a re-analysis of the deposited data

How the results depend on the processing

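Over 128 alternative values of the differences of the 10 genes, the sign changed in 0. This was largely fixed in advance. A pseudocount cannot change the sign of a difference between 2 libraries, and a filter leaves a kept value as it is. For each gene both clones lay on 1 side of the control, so leaving out 1 clone could not change the sign either. With a pseudocount of 0.1 the clone mean went from -0.67 to -1.18 for ZEB1. It went from -0.93 to -1.27 for ZEB2 and from -1.70 to -2.07 for SNAI2. A pseudocount of 0.1 raised the genes called from 28 to 139 with R-spondin2, from 167 to 345 in the clones and from 32 to 141 between the clones, the members called in the clones from 2 to 4 and between the clones from 0 to 1, and the epithelial list median with R-spondin2 went from -0.26 to -0.32. At 1.5-fold these counts were 254, 724 and 306 genes and 7 and 1 members, with 7 in the clones also at a pseudocount of 0.1 (chosen after seeing the data). A mean of at least 5 FPKM gave 14 and 12 genes with R-spondin2 and between the clones, a mesenchymal list median of -0.72 in the clones against -0.48, and 540 genes and 5 members by limma against 0. The GO list in place of the mesenchymal list gave -0.16 without SNAI1. Median-ratio rescaling gave 92 genes by limma and 0 members. Leaving out 1 clone gave 191 to 447 genes and 2 to 4 members, the higher counts from clone 1 alone, and list medians of -0.68 to -0.38 (mesenchymal) and 0.40 to 0.48 (epithelial). No paired analysis was possible because the control and R-spondin2 had 1 library each.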
